A study of Mus musculus with 4 samples.

Results

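The nuclear pore complex genes described here are 27 of the 55453 genes in the deposited count table of mouse oocytes. They were chosen by name: every symbol made of Nup and a number, together with Pom121, Ndc1, Tpr, Ranbp2, Seh1l, Rae1, Aaas and Ahctf1. The rule uses names only, although the set was proposed with earlier results of these data known. The oocytes came from the ovary, were at the germinal vesicle stage (arrested in meiotic prophase with an intact nucleus), and were either wild-type controls, labelled WT, or carried a Parp12 knockdown, with 2 libraries in each group. Both groups are labelled as taken directly from the ovary. The sources used here do not state how the knockdown was made, the strain and age of the mice, or how many oocytes or animals went into a library.

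The nuclear pore complex is the channel through the nuclear envelope by which proteins and RNA pass between nucleus and cytoplasm. A scaffold of outer rings, built from the Y complex, and an inner ring holds a central channel lined with flexible segments rich in phenylalanine and glycine, and import and export receptors cross it in a direction set by the GTPase Ran. In a fully grown oocyte the envelope around the germinal vesicle is dense with pores, which come apart when meiosis resumes and are rebuilt in the embryo from maternal stores.

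Library totals ran from 35805122 to 45230773 counts. Parp12, the targeted gene, had 14279 and 9419 counts in control libraries and 32 and 86 in knockdown libraries, so the labels and the gene went the same way in all 4 libraries. The log2 fold change of Parp12 was -7.51 (SE 0.34), and edgeR (quasi-likelihood test, Benjamini-Hochberg adjustment over all tested genes) gave it an adjusted p of 1.27e-07, with limma-voom at 0.280. All 11 oocyte markers were present, with sums of 20142 and 20912 CPM (counts per 1000000 counts of the library) in control libraries and 21601 and 21898 CPM in knockdown libraries, so that both knockdown sums were the higher. Of these 11 markers 5 (45.5%) were higher and 2 (18.2%) lower in both knockdowns, beside 18% and 16.8% of all tested genes. At an unadjusted p under 0.05 by edgeR there were 3 higher (Zp1, Zp2 and Ddx4) and 1 lower (Mos), beside 2.94% and 2.57% of all. At that limit DESeq2 listed 7 markers (10.2% of all genes) and limma-voom 8 (4.71% of all). edgeR called 0, limma-voom called 0 and DESeq2 called 2, Zp1 and Mos. Over all genes these tools called 0.0063%, 0% and 1.86%. Of 13 granulosa and cumulus markers, 7 had 0 counts in every library, among them Amh, Amhr2 and Foxl2, and all 13 together came to between 27.0 and 34.0 CPM. Most of that was Cyp19a1, at 24.7 and 29.3 CPM in control libraries and 26.7 and 23.8 CPM in knockdown libraries, and Fshr had 1.70 to 5.36 CPM. The 8 theca and stroma markers summed to between 1.75 and 4.74 CPM, and the 8 blood and vessel markers to between 107 and 114 CPM, mostly from Pecam1 (91.6 to 101 CPM) with Kdr at 8.35 to 14.1 CPM. Of the other blood and vessel markers, Cdh5 and Adgre1 had 0 counts in every library. Hbb-bs, Hba-a1 and Ptprc had 1, 22 and 12 counts, each in 1 library. Cd68 had 0 and 1.07 CPM in control libraries, against 3.05 and 2.07 CPM in knockdown libraries. In such bulk samples, less RNA per cell and fewer cells of a kind cannot be told apart.

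All 27 nuclear pore genes were detected in every library and passed the filter on low counts. Together they took 0.448% and 0.449% of a control library's counts and 0.443% and 0.440% of a knockdown library's. Their summed level was 4477 and 4492 CPM in control libraries, against 4426 and 4396 CPM in knockdown libraries. In CPM both knockdown sums were therefore just below both control sums. Nup214 alone supplied between 20.9% and 23.0% of these counts.

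Levels of different genes were compared per exon length, as TPM (transcripts per 1000000) computed from the counts and the summed exon length in the table. The order ran from Nup214 at 340 ± 8.56 TPM (SD, n = 2, controls) to Nup210 at 2.16 ± 1.10 TPM. Nup214, which faces the cytoplasm and takes part in export, ranked 438th of all genes in the controls. Nup62, of the central channel, followed at 292 ± 9.07 TPM, then Nup107 at 238 ± 2.09, Nup85 at 212 ± 7.88 and Nup93 at 192 ± 1.90 TPM. By exon length these top 5 were separated from one another in all 4 libraries. At the low end, Nup205 had 18.6 ± 0.599 TPM, Nup155 11.5 ± 2.39, Nup133 11.3 ± 0.629 and Nup210 2.16 TPM. Nup155 and Nup133 overlapped, and Nup210 lay below every other member in every library. Of the 26 pairs of neighbours in the order, 10 were separated in all 4 libraries and 16 overlapped.

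**Figure D1:**
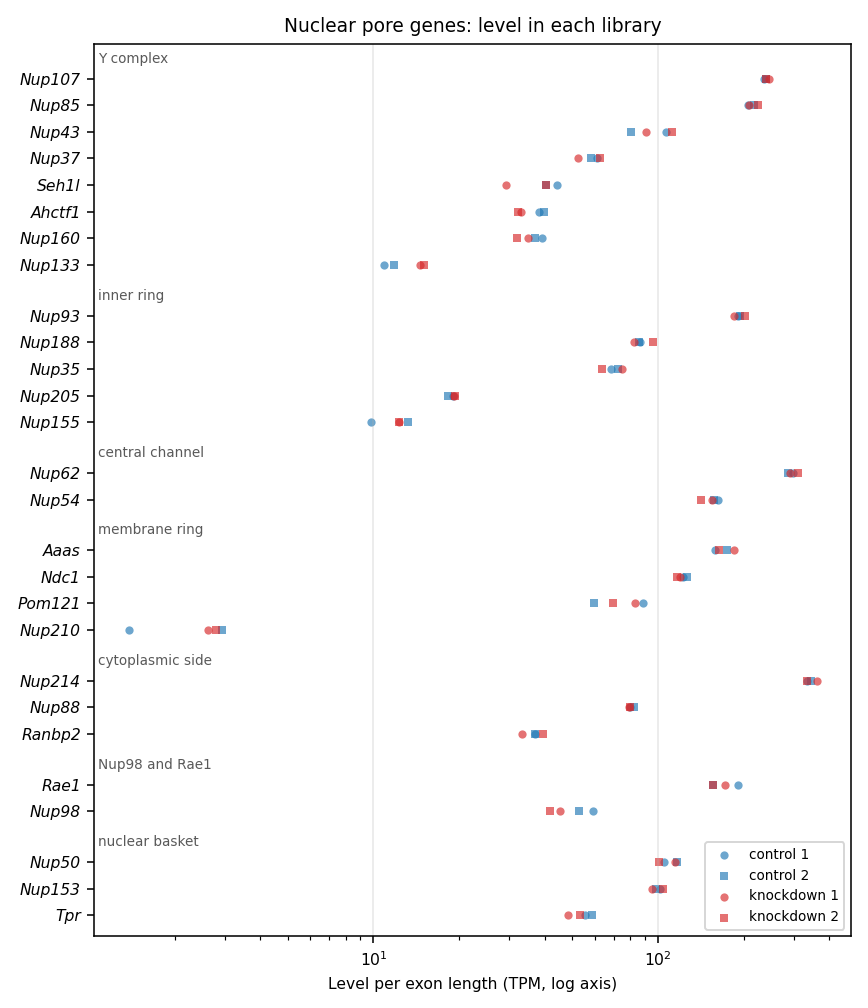
Level of each of the 27 nuclear pore genes in each library, in TPM on a log axis, with genes grouped by position in the pore and ordered by control level within a group. Blue symbols are controls and red symbols knockdowns, circles replicate 1 and squares replicate 2; the 4 libraries of a gene lie close together beside the range from Nup210, at 2.16 TPM in the controls, to Nup214, at 340 TPM.

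Subunits that sit together in the pore differed widely in messenger RNA level. Nup107 and Nup133 are neighbours in the stem of the Y complex, and the level of Nup107 was 21.7 and 20.3 times that of Nup133 in the controls and 16.8 and 16.0 times in the knockdowns. Nup93 was between 14.6 and 19.4 times Nup155 over the 4 libraries, although both belong to the inner ring. Ndc1 was between 41.6 and 88.7 times Nup210, and both are membrane proteins of the pore. In contrast Nup62 and Nup54, partners in the central channel, differed by only 1.81 to 2.19 times. Taking the longest protein-coding transcript as the length instead of all exons left the order largely as it was (Spearman correlation 0.930 over 27 genes, which share libraries and counts). By transcript length Nup85 came 2nd, Nup62 3rd and Nup107 4th, and neighbours among these overlapped between libraries. Nup88 moved from 14th to 6th. The choice of length changed single ratios. Nup214 was 4.17 to 4.57 times Nup88 by exon length and 1.84 to 2.02 times by transcript length. By transcript length Ndc1 was 30.0 to 64.0 times Nup210, and Nup62 was 1.34 to 1.63 times Nup54. Nup93 was 13.9 to 18.5 times Nup155, and Nup107 stayed between 16.3 and 22.2 times Nup133.

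Since the members span such a range of levels, the bases just before the start sites of the highest member, the lowest member and an abundant Y complex gene are shown. They come from RefSeq (GRCm38.p6), each is the 250 bases before the most upstream RefSeq start, written 5′ to 3′ on the gene's own strand, and capitals mark the CpG dinucleotides. Nup214 lies on the plus strand at chr2:31974200-31974449, Nup210 on the minus strand at chr6:91116827-91117076 and Nup107 on the minus strand at chr10:117792706-117792955.
Nup214: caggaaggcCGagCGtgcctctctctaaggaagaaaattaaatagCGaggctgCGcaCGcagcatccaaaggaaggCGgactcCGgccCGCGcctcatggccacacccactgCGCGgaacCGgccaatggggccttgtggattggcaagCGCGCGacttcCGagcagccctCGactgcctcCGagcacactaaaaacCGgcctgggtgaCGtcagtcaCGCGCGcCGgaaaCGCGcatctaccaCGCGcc
Nup210: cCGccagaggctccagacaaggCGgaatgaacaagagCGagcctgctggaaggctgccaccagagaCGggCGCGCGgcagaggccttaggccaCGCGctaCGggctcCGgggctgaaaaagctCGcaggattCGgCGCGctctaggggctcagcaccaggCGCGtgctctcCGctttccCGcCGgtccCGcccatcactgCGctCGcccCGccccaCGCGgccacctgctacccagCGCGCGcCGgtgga
Nup107: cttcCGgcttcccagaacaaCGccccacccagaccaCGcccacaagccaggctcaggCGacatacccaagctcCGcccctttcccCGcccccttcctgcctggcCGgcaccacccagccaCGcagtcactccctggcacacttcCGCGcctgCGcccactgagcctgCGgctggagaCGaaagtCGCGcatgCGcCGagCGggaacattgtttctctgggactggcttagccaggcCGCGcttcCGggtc

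These windows hold 28 CpG for Nup214, 30 for Nup210 and 21 for Nup107, so the most and the least abundant member had nearly the same number. Windows could be matched for 23 of the 27 members, with a median of 21 CpG (range 5 to 37), against a median of 10 over 17492 protein-coding genes. Among 5 short motifs searched on both strands, none of which contains another, CCAAT occurred in 39.1% of the member windows and 36.5% of all, GGGCGG in 56.5% and 42.7%, TATAAA in 8.70% and 12.4%, and CCGGAAG in 21.7% and 9.15%. GCGCATG, part of the palindrome that NRF1 binds, occurred in 26.1% of the member windows (Nup107, Nup133, Nup188, Nup50, Nup62 and Rae1) and in 4% of all; this short form was taken after a longer one had been searched. Nup214 had only CCAAT and Nup210 only GGGCGG of these motifs, and Nup107 had 3 of them, CCAAT and TATAAA being absent. A match of letters is a description of the window and not a bound site. The member windows also had a higher median GC content, 64% against 55.2% over all. The motif shares were not matched for base composition, and its part in them was not tested.

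No nuclear pore gene passed the main test for a difference between the groups, that of edgeR, while DESeq2 called 2. edgeR called 0 of the 27, where over all 15868 tested genes it called 0.0063%, which is Parp12 alone. At an unadjusted p under 0.05 there were 2 members lower in the knockdowns, Nup98 and Ahctf1, and 0 higher, beside 2.57% and 2.94% of all tested genes, or 5.51% in either direction. DESeq2 called 2 members, also Nup98 and Ahctf1, where over all genes it called 0.793% lower, 1.07% higher and 1.86% in either direction. At an unadjusted p under 0.05 DESeq2 listed 3 members, the third being Nup133, and 10.2% of all genes. limma-voom called 0 members (0% of all genes) and had 2 at an unadjusted p under 0.05 (4.71% of all). The median log2 fold change of the members was -0.01, with 13 above 0 and 14 below. Over all tested genes the median was 0.00.

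Most members were measured closely enough to bound the difference. The 95% interval excluded a 2-fold change in either direction for 26 of 27 members and a 1.5-fold change for 23. Nup210 was the only member whose interval reached past 2-fold, and Nup98, Nup133 and Seh1l joined it for 1.5-fold. Among the 5893 tested genes between 26.8 and 968 CPM, a range set after the values were seen to hold all members but Nup210, 98.6% of intervals excluded a 2-fold change, so this precision is that of genes at such levels. At an unadjusted p under 0.05 edgeR listed 216 of these 5893 genes lower and 158 higher, so lower ones were the more frequent at such levels. With 2 libraries a group an exact two-sided permutation test of 1 gene cannot go below 0.333, so none was run. Nothing in the labels says that the replicates came from separate animals, and the spread between them may be technical.

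**Figure D2:**
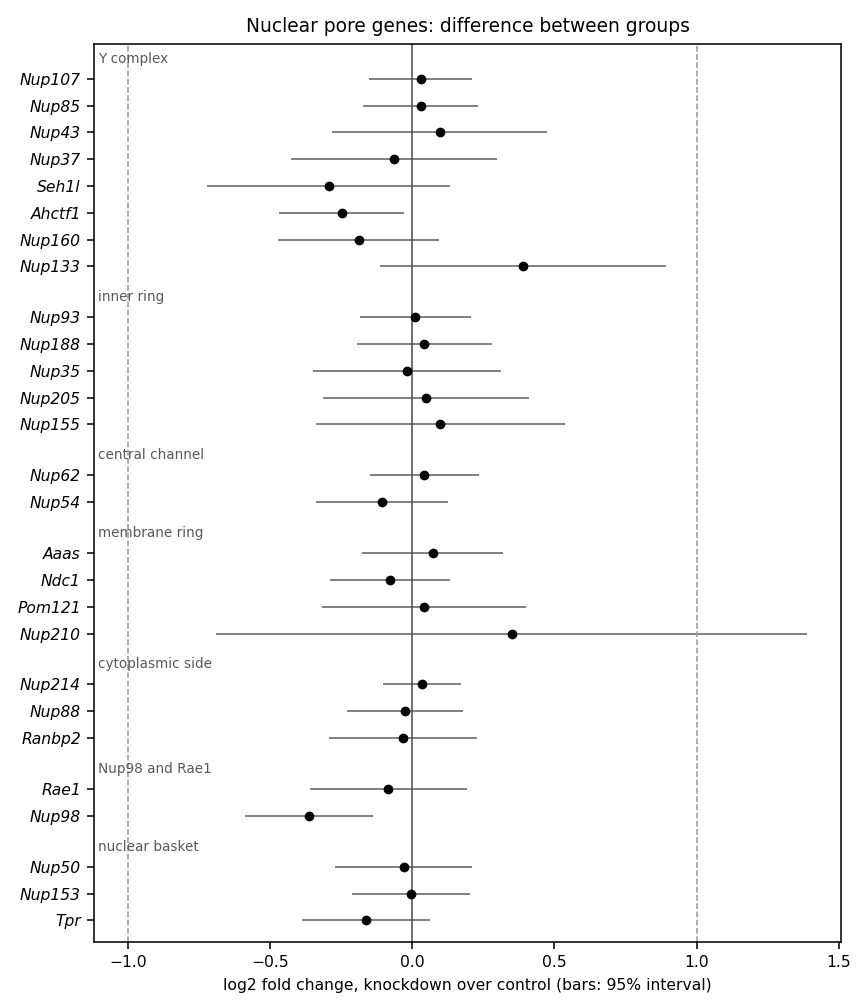
Fitted log2 fold change of each nuclear pore gene, knockdown over control, with its 95% interval from edgeR (horizontal bars), grouped by position in the pore. Dashed lines mark a 2-fold change in either direction; only the interval of Nup210 crosses one of them, and those of Nup98 and Ahctf1 lie wholly below 0.

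Both knockdown libraries lay below both controls, in CPM, for 7 members (25.9%) and above them for 3 (11.1%). Over all tested genes the shares were 16.8% and 18%, which is 34.9% without overlap in either direction. Among the 5893 tested genes between 26.8 and 968 CPM they were 19.1% lower and 17.3% higher. The 7 lower members were Nup98, Ahctf1, Nup160, Seh1l, Tpr, Ndc1 and Nup54, and the 3 higher members were Nup133, Nup107 and Nup205. Seh1l was separated only narrowly, at 48.51 CPM in knockdown replicate 2 against 48.66 CPM in control replicate 2. The TMM scaling factors of these libraries in the fit were 1.001 and 1.008, so after scaling the groups of Seh1l overlap. In CPM the groups overlapped for 17 members. The gap between group means was wider than the larger gap between replicates for 6 of the 27 members, Ahctf1, Ndc1, Nup133, Nup160, Nup98 and Tpr. The same share was not computed over all tested genes, so this number cannot be called high or low.

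**Figure D3:**
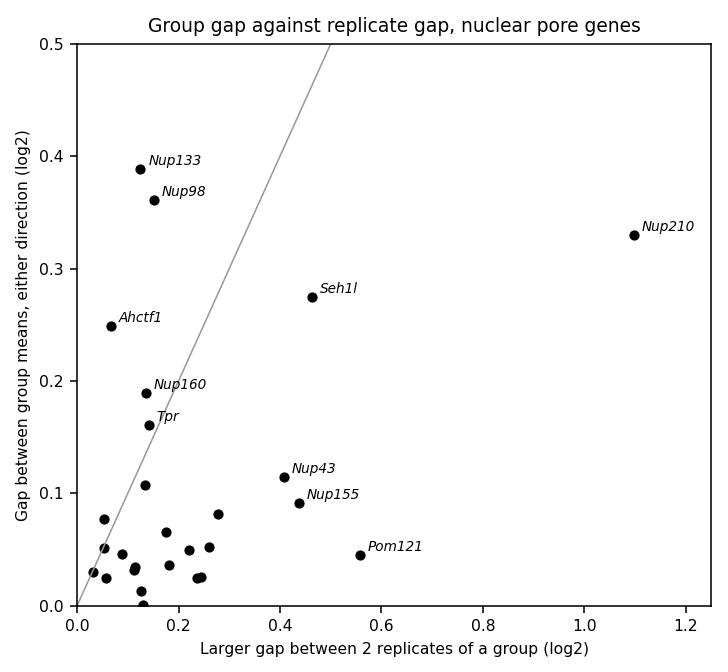
Gap between the control and knockdown means of each nuclear pore gene (vertical axis, log2 of the ratio of mean CPM, sign dropped) against the larger of its gaps between 2 replicates of a group (horizontal axis, log2). The line marks equal gaps; the 6 genes above it include Nup133, Nup98 and Ahctf1, and Nup210, with a replicate gap of 1.10, lies farthest to the right.

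The mobile nucleoporin Nup98 and its partner Rae1 include the member with the smallest p. Nup98 lines the channel with segments of the GLFG kind and binds Rae1, a messenger RNA export factor. The same gene also encodes Nup96, a Y complex subunit released when the precursor cuts itself, and counts per gene cannot separate the products. On mm10, Nup98 covers chromosome 7, minus strand, positions 102119398 to 102210176, with 12602 exonic nucleotides and 6 protein-coding transcripts. It had 216 and 194 CPM in control libraries, against 166 and 154 CPM in knockdown libraries. Every knockdown value was below every control value. The knockdown mean came to 77.8% of the control mean, with a log2 fold change of -0.36 (SE 0.10, 95% interval -0.59 to -0.14). The adjusted p was 0.835 by edgeR, 0.0112 by DESeq2 and 0.886 by limma-voom, with a range of 0.0112 to 0.994 over 13 alternatives, and of these only DESeq2 called it. Rae1 had 142 and 117 CPM in control libraries, against 128 and 117 CPM in knockdown libraries, and the groups overlapped.

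The Y complex, also named for Nup107 and Nup160, forms the outer rings. Its 8 genes within the naming rule had log2 fold changes from -0.30 to 0.39, 4 above 0 and 4 below. Sec13, a pore gene outside that rule, had 152 and 156 CPM in control libraries, against 163 and 194 CPM in knockdown libraries. Its log2 fold change was 0.21, with a 95% interval of -0.03 to 0.45 and an adjusted p of 0.835 by edgeR. Ahctf1 encodes ELYS, which sits on chromatin and starts the assembly of new pores there. Its position is chromosome 1, minus strand, 179744894 to 179803680, and it has the longest exon model of the members, 15116 nucleotides. Ahctf1 had 167 and 175 CPM in control libraries, against 146 and 142 CPM in knockdown libraries, with no overlap. Its knockdown mean was 84.1% of the control mean, a log2 fold change of -0.25 (SE 0.10, 95% interval -0.47 to -0.03). The adjusted p was 0.835 by edgeR and 0.0445 by DESeq2, and ran from 0.0445 to 0.994 over the alternatives.

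Nup133 stood on the other side. This stem subunit (chromosome 8, minus strand, 123897123 to 123949265) had 22.2 and 24.2 CPM in control libraries, against 30.0 and 30.8 CPM in knockdown libraries. The groups did not overlap, and the mean of the knockdowns was 131% of that of the controls. From 992 to 1277 counts a library, the log2 fold change of 0.39 had a 95% interval of -0.12 to 0.89 and an adjusted p of 0.843 by edgeR and 0.282 by DESeq2. Exons on the opposite strand cover 10.4% of those of Nup133; they belong to Gm29773, with 0 counts in every library, and Gm45890, with 38 counts in knockdown replicate 2 and 0 in the others. Seh1l, a small subunit shared with a complex of nutrient sensing, had 52.6 and 48.7 CPM in control libraries, against 35.2 and 48.5 CPM in knockdown libraries. Knockdown replicate 1 was low, and replicate 2 was just under the lower control. The Seh1l log2 fold change of -0.30 had an interval of -0.72 to 0.13, and was -0.06 without knockdown replicate 1 and -0.53 without knockdown replicate 2. Nup160, of the arms of the Y, had 99.8 and 95.1 CPM against 89.5 and 81.4 CPM, a log2 fold change of -0.19 with an interval of -0.47 to 0.10.

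The remaining Y complex genes of the rule, Nup107, Nup85, Nup37 and Nup43, had log2 fold changes from -0.06 to 0.10. Nup107 had 264 and 269.4 CPM in control libraries, against 275 and 269.5 CPM in knockdown libraries, and its interval of -0.15 to 0.21 allowed little change either way. Nup85 had 203 and 216 CPM against 206 and 222 CPM. Nup37, a peripheral subunit, had 58.9 and 56.7 CPM against 50.7 and 60.8 CPM. Nup43, another, had 79.5 and 59.9 CPM against 67.7 and 83.4 CPM. These 3 genes overlapped between groups, and Nup43 varied 1.33-fold between the controls and 1.23-fold between the knockdowns.

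**Figure D4:**
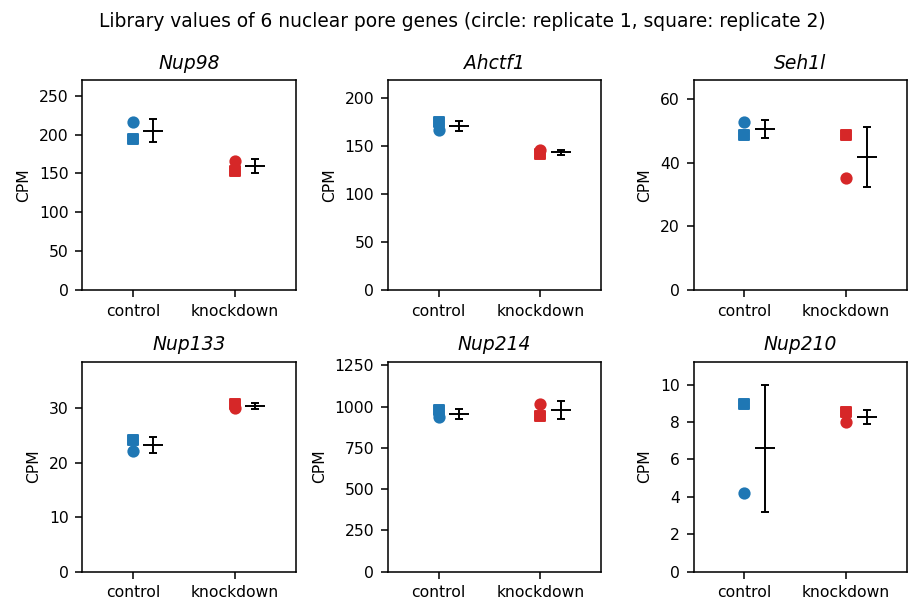
Level of 6 nuclear pore genes in each library, in CPM on axes that start at 0, with circles for replicate 1 and squares for replicate 2. Black bars give the mean and SD of 2 libraries; Nup98 and Ahctf1 were lower and Nup133 higher in both knockdown libraries, Seh1l and Nup210 had 1 library apart from the rest, and Nup214 overlapped.

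Genes of the inner ring and the central channel showed small differences. The inner ring joins the outer rings to the channel, and its 5 genes had log2 fold changes between -0.02 and 0.10. Nup93, which links the ring to the channel proteins, had 236 and 241 CPM in control libraries, against 230 and 251 CPM in knockdown libraries. Nup188, a large scaffold subunit, had 157.0 and 156.9 CPM against 150.0 and 175 CPM. Its relative Nup205 had 51.5 and 49.6 CPM against 52.3 and 52.5 CPM, higher in both knockdowns by less than the gap between the controls. Nup155 had 34.1 and 46.2 CPM in the controls and 42.8 CPM in both knockdowns, so its spread was within the controls. Nup35, which touches the membrane, had 66.8 and 71.4 CPM against 73.4 and 62.3 CPM. It shares 36.8% of its 50-nucleotide stretches with Gm4353, which had 24.4 and 28.9 CPM against 23.8 and 25.7 CPM, and how reads in such stretches were counted is not stated in the sources used here. In the central channel, whose proteins form the permeability barrier, Nup62 had 247 and 239 CPM in control libraries, against 243 and 258 CPM in knockdown libraries. Nup54 had 157 and 154 CPM against 151 and 137 CPM, lower in both knockdowns, with a log2 fold change of -0.11 and an interval of -0.34 to 0.12. It was -0.18 without knockdown replicate 1 and -0.04 without knockdown replicate 2. Nup54 shares 13.9% of its 50-nucleotide stretches with the processed pseudogene Gm15790, which had 2 to 13 counts a library.

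The third protein of that channel, known as Nup58 and listed in the table as Nupl1, had 0 counts in all 4 libraries. The Nupl1 entry has 0 protein-coding transcripts in GENCODE vM21, so this value cannot show that the message was absent. Nupl1 is outside the naming rule and was looked up after its value was seen. On mm10, 55.4% of its exonic bases are also exons of other genes on the same strand, and 48.1% of its 50-nucleotide stretches also occur in transcripts of Gm49336. Gm49336 had 85.6 and 93.3 CPM in control libraries, against 98.0 and 92.0 CPM in knockdown libraries. The part of the overlap in the value of 0 for Nupl1 was not tested. Nup42, of the cytoplasmic side and listed as Nupl2, had 5.95 and 7.79 CPM against 7.05 and 9.44 CPM.

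Membrane proteins anchor the pore in the envelope. Ndc1 had 175 and 182 CPM in control libraries, against 171 and 167 CPM in knockdown libraries, lower in both by a log2 fold change of -0.08. Pom121 had 143 and 97.3 CPM in control libraries, against 135 and 114 CPM in knockdown libraries, a 1.47-fold gap between the 2 controls that exceeded the gap between groups. Exons of Nsun5 on the opposite strand cover 11.9% of those of Pom121, and Nsun5 had 11.1 and 11.9 CPM against 10.4 and 6.62 CPM. Aaas, whose product ALADIN is held at the pore by NDC1, had 128 and 143 CPM against 151 and 134 CPM. Nup210, the large glycoprotein of the pore lumen, had 4.2 and 8.99 CPM against 8.03 and 8.55 CPM, from 190 to 368 counts a library. Control replicate 1 was the low library, and the interval of -0.69 to 1.39 reached past 2-fold upward.

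On the cytoplasmic side, where exported messenger RNA is released, the 3 genes overlapped between groups. Nup214 had 935 and 977 CPM in control libraries, against 1018 and 940 CPM in knockdown libraries, and its interval of -0.10 to 0.17 was the narrowest of the members. Nup88, its partner, had 188 and 196 CPM against 188 and 190 CPM. Ranbp2, a SUMO ligase that binds Ran, had 126 and 127 CPM against 114 and 134 CPM. On the nuclear side, the basket is built on Tpr, which had 168 and 179 CPM in control libraries, against 148 and 163 CPM in knockdown libraries. Tpr was lower in both knockdowns by a log2 fold change of -0.16 with an interval of -0.39 to 0.06, and the value was -0.09 without knockdown replicate 1. Nup153, which tethers the basket, had 207 and 202 CPM against 195 and 213 CPM. Nup50, which helps release imported cargo, had 149 and 167 CPM against 163 and 144 CPM. Both overlapped between groups.

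Nup98 and Ahctf1 were also the 2 members with the longest exon models. The 10 members over 8000 exonic nucleotides had 6 log2 fold changes below 0 and a median of -0.03, and the 17 shorter ones had 8 below 0 and a median of 0.01. Among all tested genes in the same CPM range, the 1312 longer ones had a median of -0.03 and the 4581 shorter ones 0.00. Over the 27 members the Spearman correlation of exon length and fold change was -0.11, across genes that share the same 4 libraries. The part of length in the values of Nup98 and Ahctf1 was not tested.

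Genes that work with the pore or the envelope were looked at in 6 further lists. In 5 of them, those for other pore proteins, import receptors, export receptors, the Ran system and messenger RNA export, edgeR called 0 of 64 tested genes. At an unadjusted p under 0.05 it listed 4 lower, Senp1, Tnpo1, Kpnb1 and Ipo5, and 0 higher, beside 2.57% lower and 2.94% higher over all tested genes. limma-voom called 0 of them and DESeq2 called 1, Tnpo1, beside 1.86% of all genes. The median log2 fold changes were -0.02 for 10 other pore genes, -0.07 for 18 import receptors, 0.04 for 7 export receptors, 0.16 for 8 genes of the Ran system and 0.02 for 21 messenger RNA export genes, beside 0.00 over all tested genes. When 1 library was left out the median of the other pore genes ran from -0.20 to 0.27 that of the import receptors from -0.09 to 0.01, that of the export receptors from -0.10 to 0.12, that of the Ran system from 0.07 to 0.12 and that of messenger RNA export from -0.08 to 0.06.

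Among the import receptors, Tnpo1 (transportin) had 282 and 292 CPM in control libraries, against 249 and 243 CPM in knockdown libraries, with an adjusted p of 0.835 by edgeR, 0.886 by limma-voom and 0.0186 by DESeq2. Kpnb1, the importin beta that carries most classical cargo, had 539 and 558 CPM against 456 and 511 CPM. Ipo5 had 78.6 and 98.5 CPM against 66.5 and 71.5 CPM. For these 3 genes the groups did not overlap, and of the 18 import receptors 7 were lower in both knockdowns (38.9%) and 2 higher (11.1%), beside 16.8% and 18% of all tested genes. Kpna2, the receptor with the highest CPM, had 1068 and 1093 CPM against 1124 and 1069 CPM, and overlapped.

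In the other lists Senp1, a SUMO protease found at the pore, had 261 and 243 CPM in control libraries, against 209 and 219 CPM in knockdown libraries. Gle1, which acts with the helicase Ddx19 to release messenger RNA, had 342 and 401 CPM against 350 and 322 CPM. Ddx19a itself had 482 and 470 CPM against 502 and 509 CPM. Xpo7, the export receptor with the highest CPM though not per exon length, had 183 and 164 CPM against 160 and 145 CPM, and in the Ran system Ranbp3, highest by CPM only, had 245 and 270 CPM against 274 and 225 CPM. No gene of these 4 lists other than Senp1 had an unadjusted p under 0.05 by edgeR.

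In the nuclear lamina and envelope list the fold changes lay mostly on one side. Of its 20 tested genes 19 had a log2 fold change below 0 and 1, Tmem43, above, with a median of -0.20, where all tested genes had 7864 below and 8004 above. Both knockdown libraries were below both controls for 6 of them (30%) and above for 0, beside 16.8% and 18% of all tested genes. The list summed to 1387 and 1385 CPM in control libraries, against 1241 and 1230 CPM in knockdown libraries. edgeR called 0, limma-voom called 0, and 2 genes had an unadjusted p under 0.05 by edgeR, Syne2 and Ankle2, both lower, beside 2.57% lower over all tested genes. DESeq2 called 1 of the list, a lower one, beside 0.793% lower and 1.86% in either direction over all genes. Both knockdown sums of the oocyte markers were higher than both control sums, and their part in the lower envelope values was not tested. Syne2, whose nesprin protein ties the envelope to the cytoskeleton, had 158 and 171 CPM in control libraries, against 130 and 129 CPM in knockdown libraries, with a log2 fold change of -0.35 (SE 0.11) and an adjusted p of 0.835 by edgeR, 0.886 by limma-voom and 0.00470 by DESeq2, which called it. Ankle2, which helps the envelope reform after division, had 213 and 191 CPM against 175 and 166 CPM. The list median lay between -0.21 and -0.15 over all alternatives, with the omission of each library among them.

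**Figure D5:**
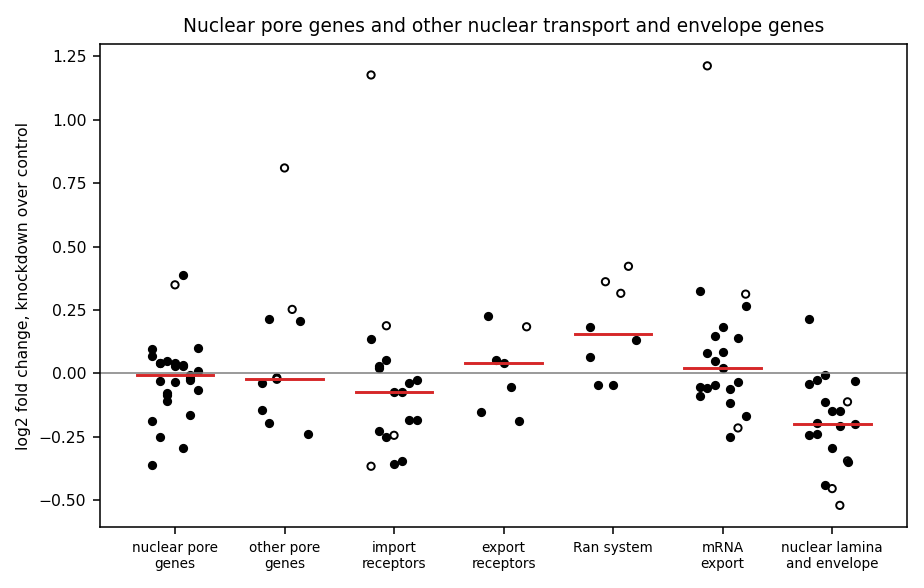
Fitted log2 fold change, knockdown over control, of each tested gene among the nuclear pore genes and 6 lists of related genes. Filled points have a 95% interval that excludes a 2-fold change, open points do not, and red lines are list medians, from -0.20 for the nuclear lamina and envelope to 0.16 for the Ran system.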

How the data were processed

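Messenger RNA of 4 libraries of mouse oocytes was sequenced, 2 control and 2 Parp12 knockdown, with groups and replicate numbers taken from the sample titles. The authors deposited raw counts per gene in the featureCounts layout, per the file headers, with coordinates and summed exon length. The tools that the submitters' processing notes list, with no roles, are featureCounts 2.0.0, STAR 2.7.5b, Trim Galore 0.6.4 and DESeq2 1.28.1, and the build is mm10. The sources used here do not state strand use or the treatment of multiply mapped reads, so genes with overlaps or near-copies are uncertain.

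Counts were fitted across all genes in R 4.3.3 with edgeR 4.0.16: filterByExpr (minimum count 10, total 15), TMM, glmQLFit (robust) and glmQLFTest, two-sided, group as the only term, Benjamini-Hochberg at 0.05 over 15868 genes. Standard errors came from the F statistic and 95% intervals from its t quantile. TPM used the deposited exon lengths. Alternatives were other scalings and filters, a replicate block, each library left out, edgeR's legacy fit, DESeq2 1.42.0 and limma-voom (limma 3.58.1). The fits were tested on simulated data. Sequences and annotation are RefSeq GRCm38.p6 and GENCODE vM21, where all 27 members had the coordinates of the table. Replicate libraries differed by more than sampling noise (chi-square per degree of freedom 34.7 and 30.0), and precision is limited by 2 libraries a group. The members and lists were chosen with earlier results of these data known. Named were all members, Parp12 and, in each list of transport, export, Ran, envelope or other pore genes, those with an unadjusted p under 0.05 by edgeR and the gene with the highest mean CPM, which is not corrected for length. Tmem43, Sec13, Nupl1, Nupl2, the cell type markers named and genes that overlap or resemble members were picked after their values were seen.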

Additional observations from a re-analysis of the deposited data

How the results depend on the processing

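Under 13 alternatives each nuclear pore gene gave 1 value per alternative, and 327 of these 351 values kept both direction and side of the threshold. DESeq2 called 2 members (Nup98 and Ahctf1) and 305 genes in all, edgeR called 8 genes when a stricter filter (both libraries of 1 group at 1 CPM or more) was used, and limma-voom called 0 genes and gave Parp12 a log2 fold change of -7.73 with an adjusted p of 0.280. Without knockdown replicate 1 edgeR called 2 genes, and 1 without any other library; leaving out each library gave Parp12 between -8.51 and -6.83, the members a median between -0.0356 and -0.0102, and 0 called members. Another 22 changed sign, all when a library was left out and all in members whose groups overlapped. Their ranges over the 4 omissions were -0.0696 to 0.0620 for Nup153, -0.10 to 0.31 for Nup155, -0.11 to 0.96 for Nup210, -0.0265 to 0.0874 for Nup85, -0.22 to 0.0780 for Rae1, -0.15 to 0.0873 for Nup35, -0.10 to 0.34 for Nup43, -0.13 to 0.0514 for Nup50, -0.22 to 0.37 for Pom121, -0.0221 to 0.15 for Aaas, -0.0233 to 0.0891 for Nup214, -0.19 to 0.0708 for Nup37, -0.16 to 0.0908 for Ranbp2, -0.0678 to 0.16 for Nup188, -0.00184 to 0.0887 for Nup62 and -0.0534 to 0.0756 for Nup93. Values that kept their sign but moved by over 1.5 times were those of Seh1l (-0.53 to -0.06), Tpr (-0.23 to -0.09), Nup54 (-0.18 to -0.04), Nup107 (0.02 to 0.04), Nup205 (0.01 to 0.09) and Nup88 (-0.04 to -0.01). Nup98 ran from -0.45 to -0.27 and Ahctf1 from -0.27 to -0.23 over all alternatives, with adjusted p from 0.0112 to 0.994 and from 0.0445 to 0.994. The cause of the differences between tools was not tested. Where an omission left a group with 1 library, its spread was taken to equal that of the other group.

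With the replicate number as a block, Parp12 had a log2 fold change of -7.52 and stayed the 1 called gene, with 0 members called. The deviations of libraries of the same number had a correlation of 0.01 over tested genes. This value cannot decide whether libraries of the same number were prepared together, since noise in genes with low counts can hide a shared deviation.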
